A study of Mus musculus with 6 samples.

Results

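The BMP and TGF-beta pathway was described through 44 listed genes, 11 ligands, 10 receptors, 9 secreted or membrane inhibitors, 10 Smad and Smurf genes and 4 Id genes, out of 23284 gene symbols in the count table. They were measured by RNA sequencing in esophageal epithelium from mouse embryos at stage E12.5. One group of 3 libraries was p63KO, homozygous for a Trp63-CreERT2 knock-in allele, and the other was 3 littermate controls, which the titles name WT and for which no further genotype is given. The labels do not say whether embryos were pooled for a library, and every p-value below therefore reflects variation among these libraries, which may be partly technical. All 44 genes had a row in the table, and 43 passed the filter on low counts and were tested. Grem1, a secreted BMP inhibitor, had 1 count over all 6 libraries and was not tested.

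Secreted ligands of this family bind a complex of type I and type II receptor kinases. BMP ligands signal through Smad1, Smad5 and Smad9, TGF-beta and activin ligands signal through Smad2 and Smad3, and both branches share Smad4. Secreted antagonists such as Noggin, Chordin and Follistatin hold ligands away from the receptors, Smad6 and Smad7 block the pathway inside the cell, and Smurf1 and Smurf2 are ubiquitin ligases that remove its components. Id proteins are classical BMP target products that bind basic helix-loop-helix factors or their E protein partners and keep them off DNA. Noggin is known in the mouse as a gene needed for the foregut tube to divide into trachea and esophagus.

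Total counts lay between 13335328 and 16506401 in p63KO libraries and between 16948971 and 20093838 in control libraries. Levels below are library-size-scaled counts (CPM) adjusted by the TMM method, which corrects for differences in library make-up. Trp63 was at 76.7, 62.2 and 75.4 CPM in p63KO libraries, against 583.9, 674.1 and 550.6 CPM in control libraries, so each library's level matched its genotype label. The 10 epithelial markers (Epcam, Cdh1, keratins and foregut factors) were all detected and summed to between 5085 and 5259 CPM in p63KO and between 4800 and 4916 CPM in control. Single markers did change: 5 rose and 2 fell in the edgeR test at an adjusted p under 0.05. Those that fell were Cdh1 and Shh, with log2 fold changes of -0.40 and -0.51. Over all genes tested, 15.3% rose and 14.3% fell. Control replicate 3 stood apart from the other libraries on the second principal component, which held 8.53% of the variance. Xist, the transcript of the inactive X chromosome, was nearly absent from p63KO replicate 2 (1.59 CPM), whereas the remaining libraries held 514.4 CPM or more. Ddx3y, a Y-linked gene, was between 33.8 and 104.9 CPM in p63KO and between 53.7 and 75.4 CPM in control, so transcripts of both genes were present in the other 5 libraries.

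The ligands, the secreted inhibitors and Id4 held most of the large changes, and among the receptors, Smads and Smurfs Bmpr1b and Smad9 were the genes called at 2-fold or more. Of the 43 tested genes, 16 rose and 11 fell in p63KO in the edgeR quasi-likelihood test at an adjusted p under 0.05, which is 62.8%, against 29.6% of all 13849 genes tested, 15.3% higher and 14.3% lower. At least 2-fold changes were called for 11 that rose and 3 that fell, where 11.6% of all genes tested had such a change in either direction. The median log2 fold change was -0.08, against -0.01 over all genes, and its median size without sign was 0.52, against 0.20. The p63KO and control libraries did not overlap for 28 of the 43 genes, against 44.1% of all genes tested. The genes called included each role, with 7 of 11 ligands, 6 of 10 receptors, 6 of 8 tested inhibitors, 6 of 10 Smad and Smurf genes and 2 of 4 Id genes.

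With 1 library left out at a time, 19 of the 27 calls were kept in all 6 fits, 12 of them rises and 7 falls. The number that fell was 7 without control replicate 1. The 8 calls lost in at least 1 such fit were those of Bmp2, Acvr2a, Tgfbr1, Tgfbr3, Smad2, Smad7, Smad9 and Smurf1, and each is given with its values below.

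**Figure D1:**
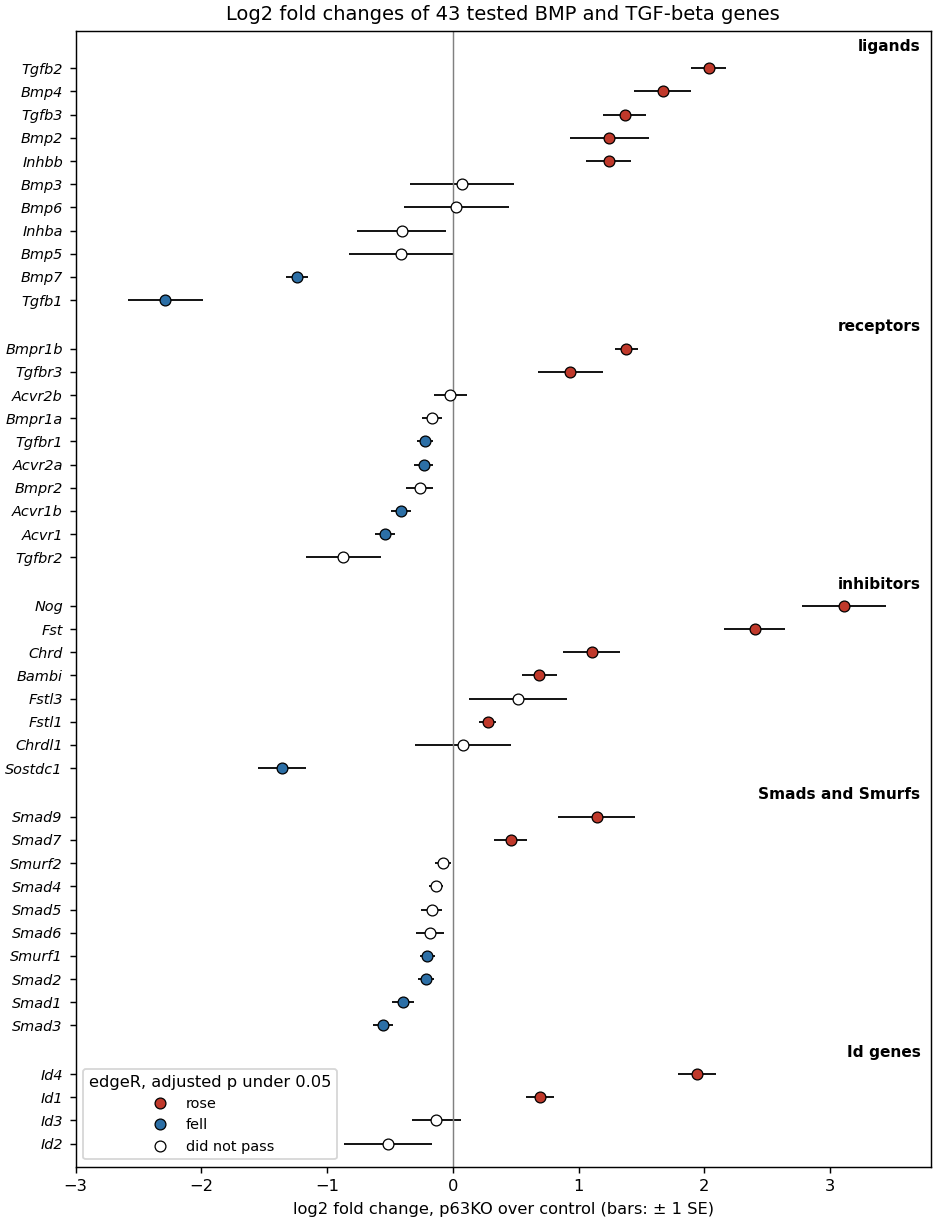
Log2 fold changes of the 43 tested BMP and TGF-beta genes, p63KO over control, on the horizontal axis, with bars of 1 SE. Red points rose, blue points fell and white points did not pass the edgeR test; ligands run from 2.03 for Tgfb2 to -2.29 for Tgfb1, while most receptors and Smads lie close to 0.

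Within the TGF-beta ligands Tgfb1 and Tgfb2 changed in opposite directions, and the Id family was split between Id4, which rose, and Id3, which did not pass. The sequences around the starts of these 4 genes are shown because their values diverge within a family. They come from RefSeq on build GRCm38.p6, run 5′ to 3′ and are 300 bases long, most of them before the start. Capitals mark GGCGCC as well as GGAGCC (GC-rich Smad motifs) and the Smad box CAGAC, on either strand; Tgfb1 lies at chr7:25686752-25687051 on the plus strand, Tgfb2 at chr1:186705940-186706239 on the minus strand, Id4 at chr13:48260866-48261165 on the plus strand and Id3 at chr4:136143572-136143871 on the plus strand.
Tgfb1: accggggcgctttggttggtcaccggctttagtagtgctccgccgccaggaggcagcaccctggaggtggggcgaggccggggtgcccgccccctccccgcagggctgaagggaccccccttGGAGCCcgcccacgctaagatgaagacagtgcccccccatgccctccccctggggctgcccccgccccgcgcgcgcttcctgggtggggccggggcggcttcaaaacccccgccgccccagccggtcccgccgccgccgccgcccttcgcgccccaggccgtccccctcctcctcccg
Tgfb2: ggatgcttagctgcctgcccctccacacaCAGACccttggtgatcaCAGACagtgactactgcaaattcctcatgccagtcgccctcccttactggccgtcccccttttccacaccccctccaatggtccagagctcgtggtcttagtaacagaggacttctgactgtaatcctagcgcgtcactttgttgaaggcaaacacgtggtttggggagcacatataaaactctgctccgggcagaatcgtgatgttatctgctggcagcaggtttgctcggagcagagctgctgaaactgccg
Id4: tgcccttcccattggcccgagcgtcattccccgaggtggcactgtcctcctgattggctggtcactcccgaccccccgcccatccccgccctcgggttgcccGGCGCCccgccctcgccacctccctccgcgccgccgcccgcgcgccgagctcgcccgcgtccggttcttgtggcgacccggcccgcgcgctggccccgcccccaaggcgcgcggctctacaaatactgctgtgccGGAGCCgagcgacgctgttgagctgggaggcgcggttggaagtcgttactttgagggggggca
Id3: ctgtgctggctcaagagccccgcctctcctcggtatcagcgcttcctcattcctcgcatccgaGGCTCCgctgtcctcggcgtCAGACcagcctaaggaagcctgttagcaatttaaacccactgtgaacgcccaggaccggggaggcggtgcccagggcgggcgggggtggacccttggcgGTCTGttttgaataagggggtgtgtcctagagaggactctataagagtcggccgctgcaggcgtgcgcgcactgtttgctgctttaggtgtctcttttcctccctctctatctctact

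The Tgfb1 window held GGAGCC at 1 place and no CAGAC, and the Tgfb2 window held CAGAC at 2 places and neither GC-rich motif. The Id4 window held GGCGCC and GGAGCC at 1 place each, while the Id3 window held GGAGCC at 1 place and CAGAC at 2. Searching both strands of 32851 RefSeq windows of the same length, GGCGCC was in 11.9%, GGAGCC in 30.8% and CAGAC in 49.6%. The shorter Smad box GTCT, whose reverse strand lies inside CAGAC, was in 88.0% of windows and was not in the Id4 window. Windows of 30 of the 44 genes were searched, 35 in all because some genes have several starts. GGCGCC was in 12 of these, GGAGCC in 21, CAGAC in 16 and GTCT in 31. Their GC content ran from 43.3% for Bmp5 to 83.7% for Acvr1 and was not matched to that of all windows. Some windows of the same gene, as for Smad5, overlap, so 1 motif can be counted more than once. Whether any motif is enriched was not tested.

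Among the TGF-beta ligands, Tgfb1 fell while Tgfb2 and Tgfb3 rose. Tgfb1 was at 2.24, 1.04 and 2.45 CPM in p63KO libraries, against 9.72, 10.4 and 7.95 CPM in control libraries. Every p63KO library was below every control library, with a log2 fold change of -2.29 (SE 0.30, edgeR adjusted p = 0.00038). Tgfb2, the form known for roles in epithelial and mesenchymal remodelling in the embryo, was at 37.1, 32.5 and 38.3 CPM in p63KO libraries, against 7.68, 10.4 and 8.18 CPM in control libraries. The groups lay far apart, and the log2 fold change of 2.03 (SE 0.14, edgeR adjusted p = 6.9e-06) corresponds to 4.10-fold. Tgfb3 was at 16.2, 17.8 and 17.2 CPM in p63KO libraries, against 6.77, 5.21 and 7.89 CPM in control libraries, again without overlap (log2 fold change 1.37, SE 0.17, edgeR adjusted p = 0.00028).

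The make-up of the 3 TGF-beta ligand genes within a library, which does not depend on the scaling between libraries, differed accordingly. As a share of their summed CPM per kilobase of exon, Tgfb1 held between 3.98% and 8.31% in p63KO libraries, against between 48.3% and 57.5% in control libraries. Tgfb2 held between 52.1% and 55.0% in p63KO and between 18.6% and 24.0% in control. Tgfb3 held between 37.0% and 43.9% in p63KO and between 18.5% and 30.9% in control. On this per-kilobase scale Tgfb1 was thus the leading TGF-beta ligand gene in each control library and Tgfb2 in each p63KO library. The control order depends on the exon lengths used. Before division by length, Tgfb1 was above Tgfb2 in control replicate 1, at 9.72 against 7.68 CPM. The 2 genes were level at 10.4 CPM in control replicate 2, and Tgfb2 was slightly higher in control replicate 3, at 8.18 against 7.95 CPM. The shares were computed after the fold changes were known and were given no test.

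Of the BMP ligands, Bmp4 and Bmp2 rose and Bmp7 fell. Bmp4, a ligand that patterns the foregut, was at 34.4, 21.7 and 34.2 CPM in p63KO libraries, against 11.8, 9.55 and 7.07 CPM in control libraries. All p63KO libraries were above all control libraries, 3.18-fold in the fit (log2 fold change 1.67, SE 0.22, edgeR adjusted p = 0.00045). Bmp7, by contrast, was at 81.1, 81.7 and 85.6 CPM in p63KO libraries, against 200.5, 215.2 and 170.1 CPM in control libraries. The p63KO libraries were close to each other and below every control library (log2 fold change -1.24, SE 0.09, edgeR adjusted p = 8.8e-06).

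Bmp2, a near relative of Bmp4, was a low gene at 5.72, 3.19 and 3.94 CPM in p63KO libraries, against 1.34, 1.74 and 2.36 CPM in control libraries. The groups did not overlap, and p63KO replicate 1 was the highest library (log2 fold change 1.25, SE 0.31, edgeR adjusted p = 0.016). The call was lost without p63KO replicate 1 (edgeR adjusted p = 0.069) and without control replicate 1 (edgeR adjusted p = 0.055). Bmp3, a divergent BMP that can oppose the others, and the ligand genes Bmp5 and Bmp6 were each below 4 CPM in every library, with overlapping groups. Their log2 fold changes were 0.07 (SE 0.41), -0.41 (SE 0.42) and 0.03 (SE 0.42), and none passed the test, although with these errors a change of 1.5-fold in either direction could not be told from none. Bmp6 shares 6.23% of its exon bases with Txndc5 on the opposite strand, which had 22293 counts.

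Per kilobase of exon, Bmp7 was the most abundant ligand gene in control libraries, at 53.2 ± 6.27 CPM per kb (SD, n = 3), and it was at 22.6 ± 0.66 CPM per kb in p63KO (SD, n = 3). Bmp4 was at 14.6 ± 3.52 CPM per kb in p63KO and 4.58 ± 1.14 CPM per kb in control (SD, n = 3 each). The ratio of Bmp4 to Bmp7 on this scale was 0.75, 0.47 and 0.71 in p63KO libraries, against 0.10, 0.079 and 0.074 in control libraries. Bmp7 remained above Bmp4 in every library, but its share of the 6 BMP ligand genes was between 52.4% and 64.5% in p63KO, against between 88.3% and 89.9% in control.

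**Figure D2:**
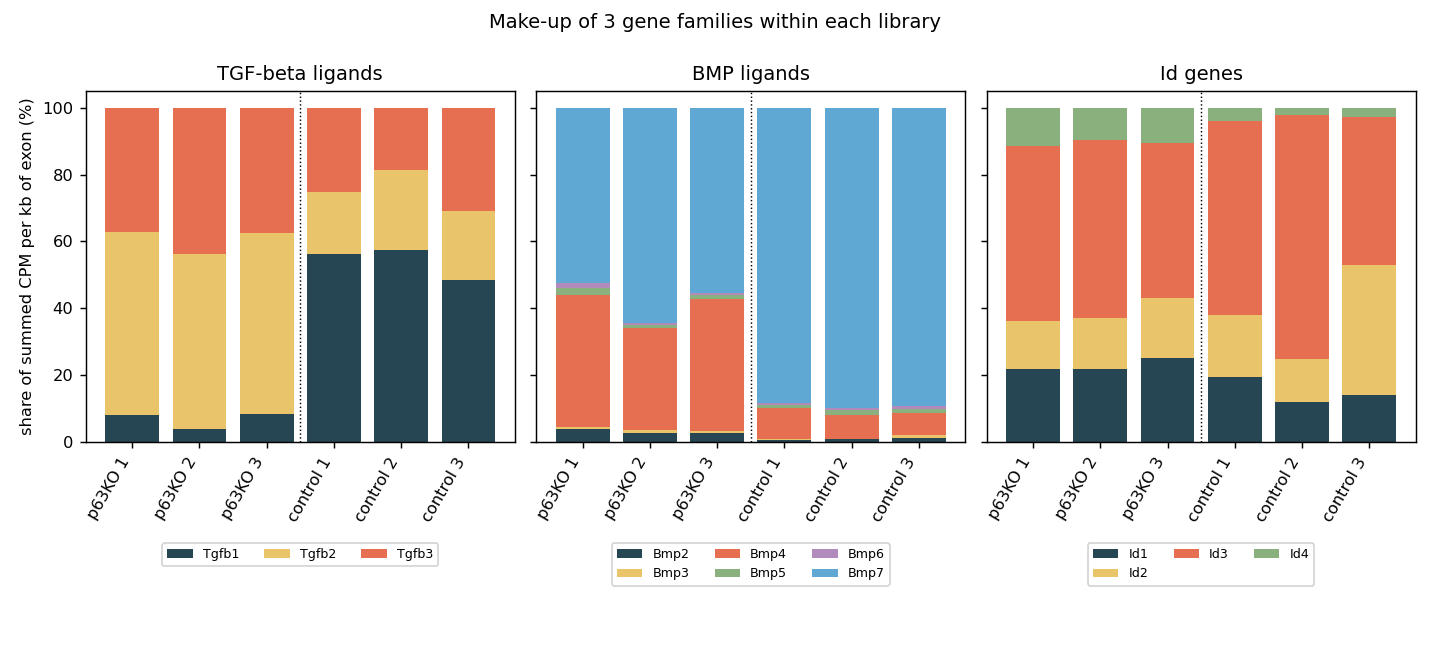
Make-up of the TGF-beta ligand, BMP ligand and Id gene families in each library, as percent of the family's summed CPM per kilobase of exon; p63KO libraries stand left of the dotted line and control libraries right of it. Tgfb1 took between 3.98% and 8.31% of the TGF-beta ligand bars in p63KO and between 48.3% and 57.5% in control.

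Inhbb, the beta B subunit of activin and inhibin, was the most abundant ligand gene per kilobase in p63KO, at 28.7 ± 3.33 CPM per kb, against 12.1 ± 3.33 CPM per kb in control (SD, n = 3 each). In CPM it was at 138.6, 113.8 and 114.2 in p63KO libraries, against 61.8, 57.8 and 35.5 in control libraries. The groups did not overlap, and control replicate 3 was the lowest library (log2 fold change 1.24, SE 0.18, edgeR adjusted p = 0.00076). Inhba, the beta A subunit, was between 1.04 and 1.34 CPM in p63KO and between 1.24 and 2.36 CPM in control and did not pass (log2 fold change -0.41, SE 0.36, edgeR adjusted p = 0.45).

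Markers of several other cell types also differed between p63KO and control libraries. Their part in these ligand changes and in the inhibitor and Id changes that follow was not tested. All 10 listed neuroendocrine markers were called higher, although 7 of them passed the filter on low counts only through the p63KO libraries and so could not have been called lower, and their sum was between 482 and 604 CPM in p63KO, against between 5.01 and 9.60 CPM in control. Over all genes tested, 15.3% were called higher and 14.3% lower. Of 16 mesenchyme markers, 3 rose and 7 fell. Their sum was between 1339 and 1738 CPM in p63KO, against between 488 and 590.3 CPM in control, and Dcn alone averaged 1222 CPM in p63KO and 159 CPM in control. The fibrillar collagen genes Col1a1 and Col3a1 fell, with log2 fold changes of -1.08 and -1.11, and both calls were lost without p63KO replicate 2 or 3 and without control replicate 1 or 3 (edgeR adjusted p between 0.0751 and 0.114). Of 8 smooth muscle markers, 5 fell and none rose, with sums between 36.5 and 67.2 CPM in p63KO and between 90.7 and 203.3 CPM in control. Of 8 neural crest and enteric neuron markers, 3 rose and 1 fell, with sums between 123.8 and 168.4 CPM in p63KO and between 19.0 and 34.9 CPM in control. Sox10 was below 4 CPM on average in both groups. The 8 endothelial markers summed to between 9.80 and 13.1 CPM in p63KO and between 6.87 and 12.2 CPM in control. The 10 blood markers summed to between 11.4 and 24.6 CPM in p63KO and between 4.83 and 40.1 CPM in control, with Hba-a1, Hba-a2 and Hbb-b1 at 0 counts in all libraries. In bulk RNA, fewer cells of a type and less RNA per cell cannot be told apart.

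The secreted inhibitors held the steepest rises of the 43 genes. Noggin (Nog), which binds BMPs and blocks their receptor contacts, was at 4.96, 3.95 and 7.72 CPM in p63KO libraries, against 0.64, 0.66 and 0.59 CPM in control libraries. The counts behind these levels were 84, 57 and 104 in p63KO and 12, 13 and 10 in control. Nog passed the filter only through the p63KO libraries, since 2 of the 3 control libraries reached its level of 0.598 CPM. The lowest p63KO library was several times above the highest control library, and the log2 fold change was 3.11 (SE 0.33, edgeR adjusted p = 0.00011), or 8.64-fold. Follistatin (Fst), which sequesters activins, was at 13.3, 9.63 and 9.43 CPM in p63KO libraries, against 2.52, 1.99 and 1.59 CPM in control libraries. It too had no overlap, with a log2 fold change of 2.40 (SE 0.24, edgeR adjusted p = 7.5e-05).

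Chordin (Chrd), a second BMP-binding antagonist, was at 10.8, 11.1 and 8.39 CPM in p63KO libraries, against 6.07, 4.34 and 3.65 CPM in control libraries (log2 fold change 1.105, SE 0.23, edgeR adjusted p = 0.0053). Bambi, a membrane pseudoreceptor with no kinase domain, was at 19.5, 18.6 and 19.2 CPM in p63KO libraries, against 11.8, 10.01 and 13.8 CPM in control libraries (log2 fold change 0.69, SE 0.14, edgeR adjusted p = 0.0048). Neither gene had overlapping groups. Fstl1, a secreted glycoprotein of the follistatin-like group, was the most abundant inhibitor gene by far, at 143.2 ± 1.94 CPM per kb in p63KO and 118.1 ± 8.48 CPM per kb in control (SD, n = 3 each), and its rise was small (log2 fold change 0.28, SE 0.07, edgeR adjusted p = 0.012).

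One inhibitor went the other way. Sostdc1, a secreted antagonist of BMP and Wnt signals in ectodermal organs, was at 4.90, 4.71 and 6.39 CPM in p63KO libraries, against 16.2, 12.2 and 12.6 CPM in control libraries. All p63KO libraries lay below all control libraries (log2 fold change -1.36, SE 0.19, edgeR adjusted p = 0.00055). Per kilobase of exon, Sostdc1 ranked after Fstl1 as the next inhibitor gene in control, at 7.66 ± 1.23 CPM per kb (SD, n = 3), whereas in p63KO Fst ranked there, at 3.805 ± 0.76 CPM per kb (SD, n = 3). In p63KO the levels of Fst, Bambi (3.76 ± 0.08), Nog (3.27 ± 1.15) and Sostdc1 (2.99 ± 0.52 CPM per kb, SD, n = 3) followed in that order, and neighbours in it differed by less than the larger of their SDs. Chrdl1, a relative of Chordin, and Fstl3, an activin-binding relative of Follistatin, did not pass, with log2 fold changes of 0.08 (SE 0.38) and 0.52 (SE 0.39).

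**Figure D3:**
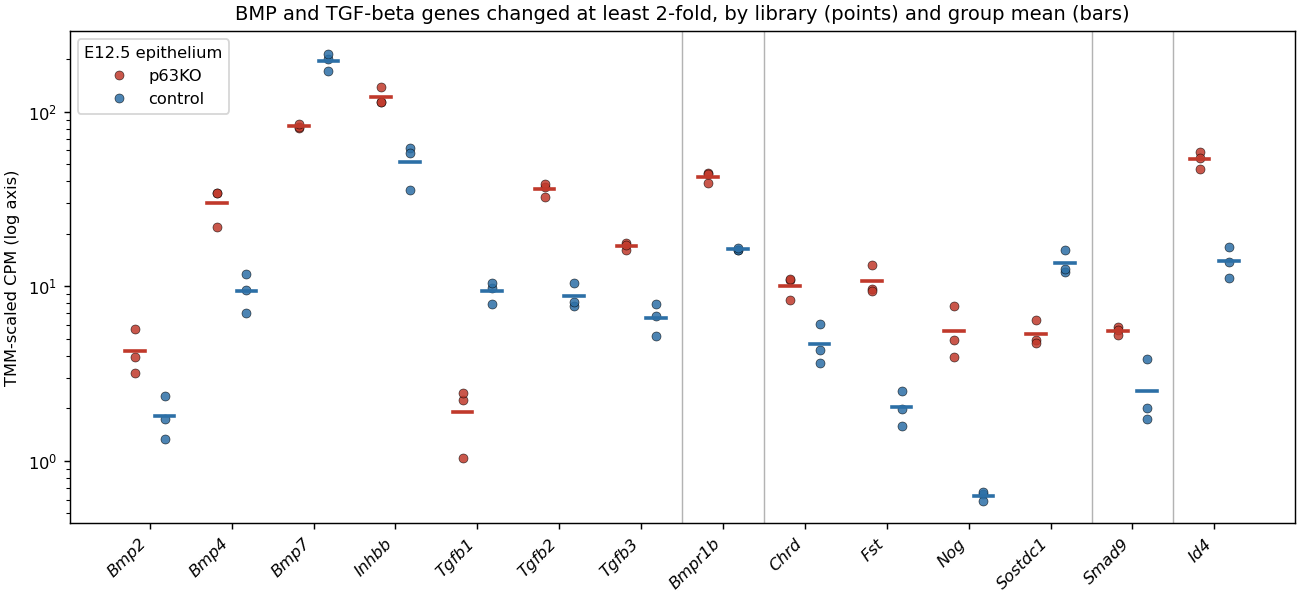
Level of the 14 BMP and TGF-beta genes called with a change of at least 2-fold, in TMM-scaled CPM on a log axis, with 1 point per library, p63KO left of control and short bars at the group means; grey lines divide ligands, receptors, inhibitors, Smads and Id genes. For each gene the p63KO and control points do not overlap, and Nog lies between 3.95 and 7.72 CPM in p63KO and between 0.59 and 0.66 CPM in control.

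Among the receptors, Bmpr1b rose strongly while its abundant relative Bmpr1a did not pass. Bmpr1b, a type I BMP receptor, was at 39.1, 44.6 and 43.96 CPM in p63KO libraries, against 16.1, 16.2 and 16.7 CPM in control libraries. Both groups were tight and far apart (log2 fold change 1.38, SE 0.09, edgeR adjusted p = 6.0e-06). Bmpr1a, the broadly used type I BMP receptor, was between 227.7 and 273.8 CPM in p63KO and between 272.7 and 298.2 CPM in control (log2 fold change -0.17, SE 0.08, edgeR adjusted p = 0.16). Per kilobase of exon, Bmpr1b was at 0.18, 0.17 and 0.17 of the Bmpr1a level in p63KO libraries, against 0.057, 0.057 and 0.063 in control libraries, so Bmpr1a remained the more abundant of the pair throughout.

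The type I receptors Acvr1 and Acvr1b fell modestly. Acvr1, which carries BMP signals, was at 41.1, 42.4 and 41.7 CPM in p63KO libraries, against 63.8, 63.7 and 54.5 CPM in control libraries (log2 fold change -0.54, SE 0.08, edgeR adjusted p = 0.00080). Acvr1b, the activin receptor, was at 129.7, 127.1 and 124.6 CPM in p63KO libraries, against 171.7, 185.6 and 150.6 CPM in control libraries (log2 fold change -0.41, SE 0.08, edgeR adjusted p = 0.0038). In both genes the p63KO libraries were nearly level with each other and below all controls. Tgfbr1, the type I TGF-beta receptor and the most abundant receptor gene per kilobase in both groups, was between 282.3 and 313.3 CPM in p63KO and between 337 and 366.9 CPM in control. Its small fall (log2 fold change -0.22, SE 0.06, edgeR adjusted p = 0.029) was lost without p63KO replicate 1, 2 or 3 (edgeR gave adjusted p = 0.089, 0.056 and 0.075) and without control replicate 1 or 2 (0.057 and 0.097).

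Of the type II receptors, Acvr2a passed, narrowly. It was between 52.9 and 60.5 CPM in p63KO and between 63.2 and 68.6 CPM in control (log2 fold change -0.23, SE 0.07, edgeR adjusted p = 0.043). The call was lost without p63KO replicate 1 or 2 (edgeR gave adjusted p = 0.12 and 0.15), without control replicate 1, 2 or 3 (0.14, 0.062 and 0.076) and with DESeq2 (adjusted p = 0.067). In the GENCODE M21 annotation 7.84% of its exon bases overlap Orc4 on the opposite strand, and the strand setting of the counts is not given. Bmpr2, the BMP type II receptor, and Acvr2b did not pass, with log2 fold changes of -0.26 (SE 0.11) and -0.02 (SE 0.13). Without control replicate 3, Bmpr2 was called lower (log2 fold change -0.35, edgeR adjusted p = 0.032).

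Tgfbr2, the type II receptor that TGF-beta ligands need, was the least abundant receptor gene per kilobase in both groups, at 0.45 ± 0.15 CPM per kb in p63KO and 0.83 ± 0.23 CPM per kb in control (SD, n = 3 each). It was at 2.95, 5.13 and 3.04 CPM in p63KO libraries, against 7.57, 4.65 and 8.13 CPM in control libraries. The groups overlapped through p63KO replicate 2 and control replicate 2, and the gene did not pass (log2 fold change -0.87, SE 0.30, edgeR adjusted p = 0.055). It passed without p63KO replicate 2 (edgeR adjusted p = 0.024), without control replicate 2 (0.020), with DESeq2 (0.029) and with edgeR's robust dispersions (0.045). Tgfbr3, the co-receptor betaglycan that presents ligand, was at 39.1, 41.3 and 56.3 CPM in p63KO libraries, against 19.8, 16.6 and 35.3 CPM in control libraries. The groups did not overlap, although control replicate 3 came close to p63KO replicate 1 (log2 fold change 0.94, SE 0.26, edgeR adjusted p = 0.024). The call was lost without p63KO replicate 3 (edgeR adjusted p = 0.098) and without control replicate 1 or 2 (0.079 and 0.057) and with robust dispersions (0.096).

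**Figure D4:**
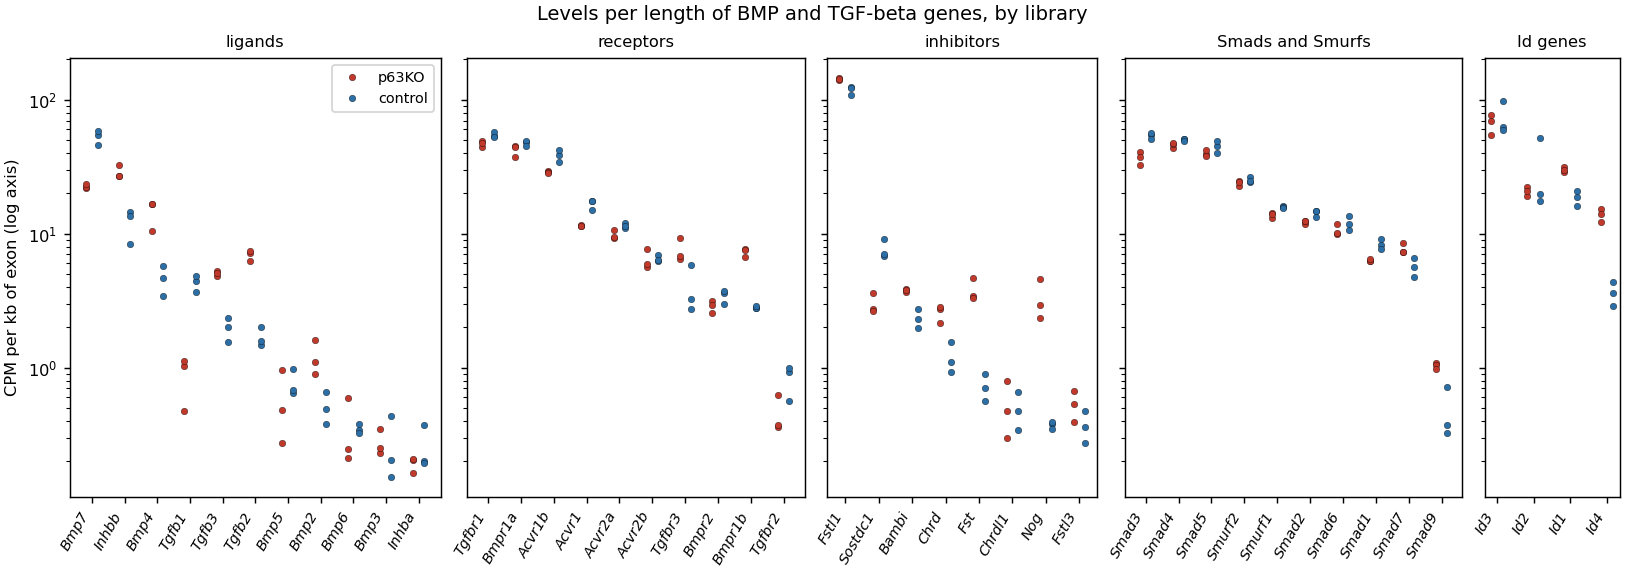
Level of each BMP and TGF-beta gene with more than 1 count, in CPM per kilobase of exon on a log axis, with 1 point per library, p63KO left of control, and genes ordered by their control mean within each role. Tgfbr1, Bmpr1a and Acvr1b lead the receptors in both groups and Tgfbr2 is the lowest, at 0.45 CPM per kb in p63KO and 0.83 CPM per kb in control.

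Apart from Smad9, the Smad genes changed by less than 2-fold, with Smad3 and Smad1 lower and Smad9 and Smad7 higher in p63KO. Smad3, a transducer of TGF-beta and activin, was at 166.3, 206.5 and 189.4 CPM in p63KO libraries, against 278.4, 286.7 and 260.6 CPM in control libraries. The groups lay apart (log2 fold change -0.55, SE 0.08, edgeR adjusted p = 0.00088). Smad2, its partner in the same branch, was between 101.9 and 107.6 CPM in p63KO and between 113.9 and 126.8 CPM in control (log2 fold change -0.21, SE 0.07, edgeR adjusted p = 0.036). This call was lost without p63KO replicate 1, 2 or 3 (edgeR gave adjusted p = 0.095, 0.091 and 0.081) and without control replicate 1 or 2 (0.11 and 0.10).

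In the BMP branch, Smad1 was at 32.5, 32.6 and 33.4 CPM in p63KO libraries, against 47.3, 42.5 and 39.6 CPM in control libraries (log2 fold change -0.40, SE 0.09, edgeR adjusted p = 0.0077). Smad5, the most abundant BMP Smad per kilobase, did not pass (log2 fold change -0.17, SE 0.08, edgeR adjusted p = 0.16) and was called lower without control replicate 3 (0.041). Smad9, the least abundant, was at 5.84, 5.61 and 5.27 CPM in p63KO libraries, against 3.81, 1.74 and 2.002 CPM in control libraries. The p63KO libraries were above all controls (log2 fold change 1.15, SE 0.30, edgeR adjusted p = 0.020). The call was lost without p63KO replicate 1 or 3 (edgeR gave adjusted p = 0.064 and 0.0502) and without control replicate 2 (0.053). Smad4, the shared partner, was between 156 and 169.8 CPM in p63KO and between 175.4 and 182.6 CPM in control and did not pass, although the groups did not overlap (log2 fold change -0.13, SE 0.06, edgeR adjusted p = 0.12).

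The inhibitory Smads parted. Smad7, which blocks both branches and is itself a target of them, was at 37.5, 32.1 and 32.2 CPM in p63KO libraries, against 24.7, 28.7 and 20.7 CPM in control libraries. The groups did not overlap (log2 fold change 0.46, SE 0.13, edgeR adjusted p = 0.026). The call was lost without p63KO replicate 1 or 3 (edgeR gave adjusted p = 0.097 and 0.053) and without control replicate 1 or 3 (0.067 and 0.060). Smad6, which acts mainly on the BMP branch, was between 29.4 and 34.9 CPM in p63KO and between 31.6 and 40.1 CPM in control and did not pass (log2 fold change -0.18, SE 0.11, edgeR adjusted p = 0.28). Of the ligase genes, Smurf1 was between 71.0 and 77.7 CPM in p63KO and between 84.5 and 87.7 CPM in control (log2 fold change -0.20, SE 0.06, edgeR adjusted p = 0.038). The Smurf1 call was lost without p63KO replicate 2 or 3 (edgeR gave adjusted p = 0.18 and 0.076), without control replicate 1, 2 or 3 (0.11, 0.089 and 0.062) and with DESeq2 (0.070). Smurf2 did not pass (log2 fold change -0.08, SE 0.06, edgeR adjusted p = 0.40).

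Of the Id genes, Id4 and Id1 rose and Id2 and Id3 did not pass. Id4 was at 58.9, 54.3 and 47.1 CPM in p63KO libraries, against 16.8, 11.1 and 13.8 CPM in control libraries. Every p63KO library was well above every control library (log2 fold change 1.94, SE 0.15, edgeR adjusted p = 1.4e-05), a 3.85-fold difference. Id1 was at 33.6, 36.8 and 34.4 CPM in p63KO libraries, against 24.2, 18.7 and 21.8 CPM in control libraries. The groups did not overlap (log2 fold change 0.70, SE 0.11, edgeR adjusted p = 0.0013).

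Id3 was the most abundant Id gene per kilobase in both groups, and it was at 88.7, 98.5 and 69.7 CPM in p63KO libraries, against 79.7, 125.7 and 75.5 CPM in control libraries. The groups overlapped in part (log2 fold change -0.13, SE 0.19, edgeR adjusted p = 0.67). Id2 was at 46.3, 54.0 and 50.9 CPM in p63KO libraries, against 48.3, 42.6 and 125.5 CPM in control libraries. Control replicate 3 alone stood high, and the log2 fold change was -0.51 (SE 0.35, edgeR adjusted p = 0.32), against 0.15 (adjusted p = 0.33) without that library. Within a library Id4 held between 9.73% and 11.53% of the summed Id level per kilobase in p63KO, against between 2.15% and 4.05% in control.

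The rest of the pathway was described with 92 further genes, all of which had a row in the table and 60 of which were tested. Among them 13 were called higher, 17 were called lower and 30 did not pass, so that 50% changed, against 29.6% of all genes tested. The list was chosen for the place of its genes in the pathway, with earlier results on these samples known.

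Of 11 tested genes that release or store ligands, 4 were called higher and none lower, which is 36.4%, near the 29.6% of all genes tested. Thbs1, a matrix protein that can activate latent TGF-beta, was at 129.2, 103.3 and 165.5 CPM in p63KO libraries, against 14.9, 15.2 and 12.48 CPM in control libraries. The groups lay far apart (log2 fold change 3.22, SE 0.17, edgeR adjusted p = 1.9e-06). Tll1, a protease of the tolloid group that cleaves Chordin, averaged 3.26 CPM in p63KO and 0.28 CPM in control (log2 fold change 3.47, SE 0.44). It was tested because of its p63KO counts alone, and no control library reached the filter's level, so a fall could not have been called. Fbn2, a fibrillin of the microfibrils that hold BMPs and latent TGF-beta, averaged 88.6 CPM in p63KO and 49.5 CPM in control (log2 fold change 0.84, SE 0.08).

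Among 10 tested extracellular modulators that were not in the first list, 3 rose and 2 fell. That is 50%, against 29.6% of all genes tested. Cer1, a secreted antagonist of the Cerberus family, had 71 counts in p63KO libraries together and 0 in control, at least 29.1-fold higher if the control libraries together are given a floor of 3 counts. Sost, the antagonist sclerostin, had 133 counts in p63KO libraries together and 5 in control (log2 fold change 4.89, SE 0.79). Fstl5 had 58 in p63KO and 5 in control (log2 fold change 3.71, SE 0.70). Both rises were called in each fit without 1 library, but their size rests on the few control counts: it was 8.56 for Sost and 4.35 for Fstl5 without control replicate 1, and 4.30 and 3.12 without control replicate 2. All 3 owed their place among the tested genes to their p63KO counts, so a call in the other direction was not possible. Kcp, a Chordin-like secreted protein, was at 3.31, 3.46 and 2.53 CPM in p63KO libraries, against 12.6, 11.03 and 10.01 CPM in control libraries, with no overlap (log2 fold change -1.85, SE 0.19, edgeR adjusted p = 9.6e-05). Nbl1, a BMP antagonist, also fell (log2 fold change -0.54, SE 0.10).

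Of 19 tested intracellular regulators of Smads, 8 fell and 1 rose, which is 47.4%, against 29.6% of all genes tested. Tgif2, a corepressor of TGF-beta Smads, averaged 66.3 CPM in p63KO and 128.9 CPM in control (log2 fold change -0.96, SE 0.09, edgeR adjusted p = 3.6e-05). Nedd4l, a ubiquitin ligase that acts on activated Smad2 and Smad3, and Ski, a Smad corepressor, had log2 fold changes of -0.59 (SE 0.07) and -0.44 (SE 0.07). Fkbp1a, which binds type I receptors, was the one that rose (log2 fold change 0.19, SE 0.06), a call kept only without control replicate 3 among the fits that left out 1 library (adjusted p up to 0.111 in the others). Of 4 tested other ligands, Bmp8b and Inha fell (log2 fold changes -0.99, SE 0.17, and -0.52, SE 0.15) and 2 did not pass. Of 6 tested other receptors and co-receptors, Rgma, a BMP co-receptor, fell (log2 fold change -0.37, SE 0.10) and 5 did not pass. Without p63KO replicate 2 or 3 or control replicate 1 the Inha and Rgma calls were lost (edgeR adjusted p between 0.0711 and 0.102).

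Of 10 tested target genes of the pathway, 5 rose and 4 fell, which is 90%, against 29.6% of all genes tested. Atoh8, a BMP target in several cell types, was at 9.27, 5.61 and 7.87 CPM in p63KO libraries, against 3.33, 1.99 and 1.77 CPM in control libraries, with no overlap (log2 fold change 1.68, SE 0.30, edgeR adjusted p = 0.0024). Gata2 and Gata3, zinc finger factors induced by BMP in ectoderm, rose (log2 fold changes 2.504, SE 0.53, and 1.39, SE 0.30), Gata2 by 1.82 without p63KO replicate 2, its highest library. Gata2 passed the filter only through the p63KO libraries, so a fall could not have been called. Cdkn2b, a cell cycle inhibitor induced by TGF-beta, was at 0.24, 0.42 and 0.37 CPM in p63KO libraries, against 2.36, 0.82 and 2.59 CPM in control libraries, and fell without overlap (log2 fold change -2.48, SE 0.54). It passed the filter only through the control libraries, so a rise could not have been called. Dlx3, a homeobox factor of BMP-responsive ectoderm, fell as well (log2 fold change -1.19, SE 0.20). All these genes have other known regulators, and whether the BMP or TGF-beta changes moved them was not tested.

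**Figure D5:**
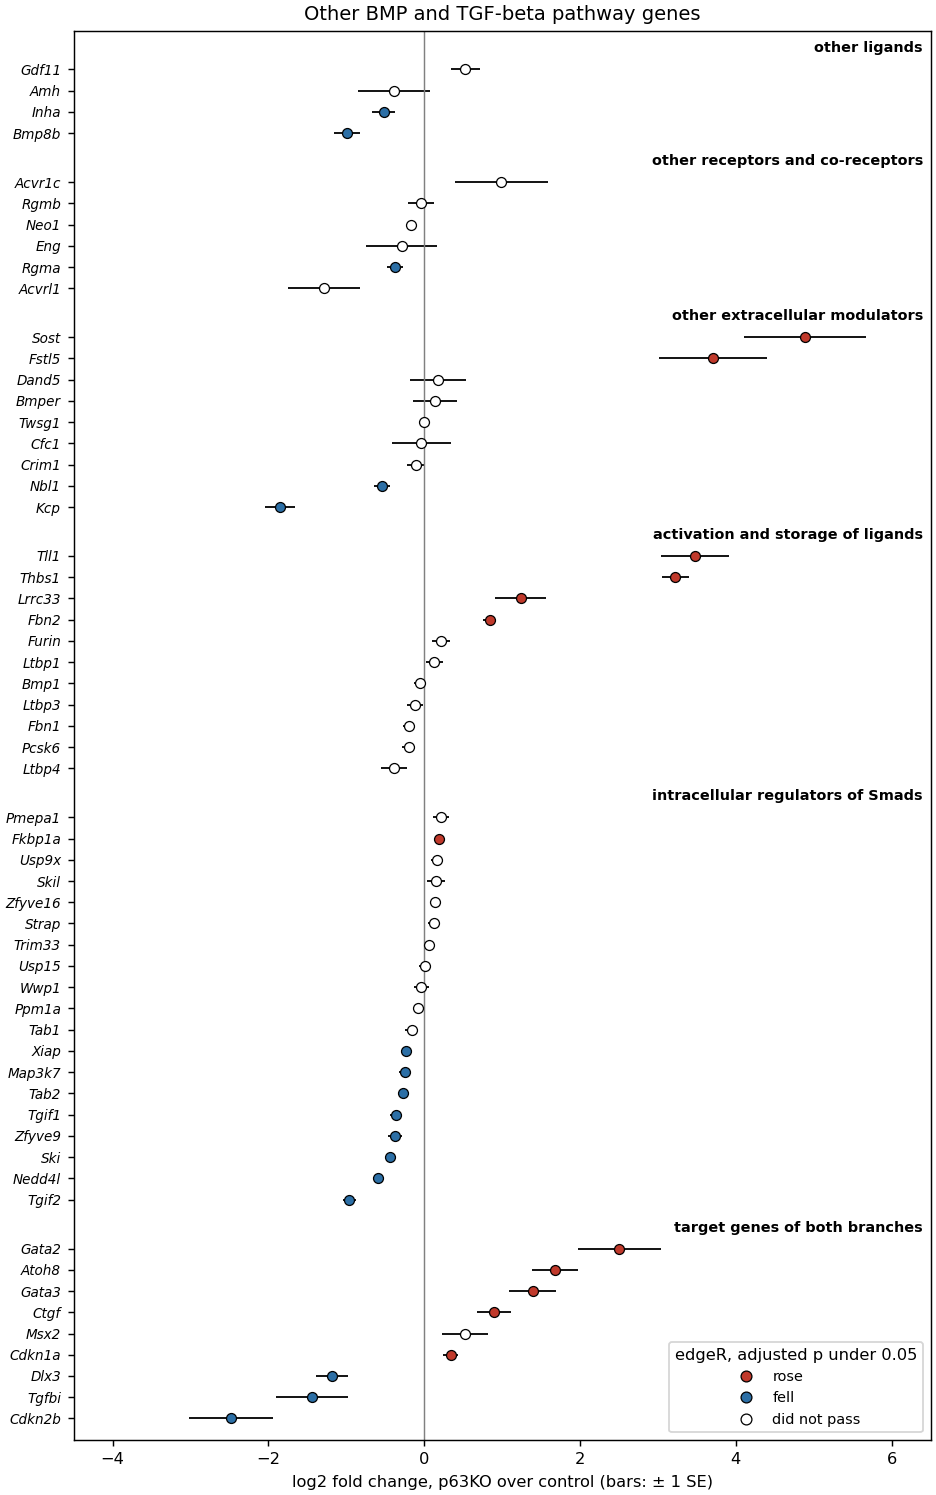
Log2 fold changes, p63KO over control, of the other tested BMP and TGF-beta pathway genes by sub-list, with bars of 1 SE; Cer1, which had no count in control, and a gene not reported here are left out. Tll1 and Thbs1 lie at 3.47 and 3.22 among the genes of ligand activation and storage, and Cdkn2b lies at -2.48 among the target genes.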

How the data were processed

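RNA counts of 3 p63KO and 3 littermate control libraries were analysed. The authors deposited unnormalized integer counts with 1 row per gene symbol. The submitters' processing notes list build mm9 and the tools TopHat2 2.1.0, bcl2fastq 1.8.4 and DESeq2. How reads were counted, on which annotation and with which strand setting is not given in the sources used, so overlapping genes could share reads. By the GENCODE M21 exons this touches Bmp5 (49.1% of exon bases under an antisense gene) and Fstl3 (59.2%) by length. By the counts of the partner gene it touches Bmp6 (6.23%) and Acvr2a (7.84%), whose partner Orc4 had 7472 counts. Smaller overlaps of other members are not listed.

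From the deposited counts, low genes were removed with filterByExpr at a minimum count of 10 and a minimum total of 15, libraries were scaled by TMM, and p63KO was set against control with the quasi-likelihood test of edgeR 4.0.16 in R 4.3.3 in a model of group alone. P-values were Benjamini-Hochberg adjusted over all 13849 genes tested, with calls at 0.05. The SE is the log2 fold change divided by the square root of F. Levels per kilobase divide CPM by the union of GENCODE M21 basic exons; the authors' gene models may differ. Libraries of 1 group differed by more than sampling noise (chi-square per degree of freedom between 7.87 and 16.1). A count of 3 equals between 0.153 and 0.223 CPM.

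All 44 genes are described; of the other pathway genes, at most 3 called in each direction per sub-list, by lowest p, are named, except for a result that is not reported here. Members and lists were chosen with earlier results of these data known. Alternatives were DESeq2 1.42.0, limma-voom (limma 3.58.1), 3 scalings, 2 filters, robust dispersions, a replicate block, stricter thresholds, fits leaving out 1 library at a time and a fit without haemoglobin, Xist and Y-linked genes. The test was also tried on simulated data with known changes, the outcome of which is not given here.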

Additional observations from a re-analysis of the deposited data

How the results depend on the processing

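Over the 17 alternatives run for each tested gene (16 for Fstl3), 658 of 730 values kept their direction and side of the threshold, 49 lost the call, 7 gained one and 16 changed sign. No called gene changed sign. Without 1 library, the genes that rose numbered between 13 and 16 and those that fell between 7 and 11; without control replicate 1, 7 fell. At an adjusted p under 0.01, 11 rose and 7 fell, 18 of the 27 calls in all. Requiring 2-fold as well, 11 rose and 3 fell. In the same order the other pathway genes gave 11 and 5 that fell, and all genes gave 1353 and 928 that rose and 1227 and 684 that fell. Sign changes were confined to 6 genes that did not pass: Bmp6 at -0.089 with limma-voom and -0.073 with the replicate block, and Acvr2b at 0.0047 with upper quartile scaling and 0.016 with library totals only. With 1 library left out, Bmp3 lay between -0.21 and 0.63, Bmp6 between -0.60 and 0.31, Acvr2b between -0.14 and 0.067, Chrdl1 between -0.33 and 0.37, Id2 between -0.79 and 0.15 and Id3 between -0.26 and 0.14; the cause was not tested. With library totals only, 8 genes fell instead of 11, without Acvr2a, Smad2 and Smurf1, and with upper quartile scaling 9 fell.

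With the replicate block, 16 genes rose and 12 fell, the added one being Smad5 (adjusted p = 0.040), and 2397 of all genes rose and 2381 fell. Deviations of same-numbered libraries from their group means correlated at 0.17, 0.26 and 0.035, and those of differently numbered libraries at between -0.229 and 0.0563. Each p63KO library correlated highest with the control library of its own number. Whether the numbers mark pairs, such as shared litters or batches, was not tested, and the main model holds no pairing. Levels under about 1 CPM, as for Cdkn2b in p63KO, rest on few counts per library, and a change under 1.5-fold in genes such as Bmp3, Bmp5, Bmp6, Inhba, Chrdl1 and Fstl3 could not be told from none with the errors of the fit, which hold the spread between libraries as well as counting error.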
